A study of Mus musculus with 2 samples.

Results

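The segment of mouse chromosome 12 between 70 and 80 Mb (mm9) held 420 of the 105572 CTCF peaks listed for embryonic stem cells and neural precursor cells together. Its members were taken by peak centre: 259 of 54151 peaks of the stem cell list and 161 of 51421 peaks of the precursor list. The segment was selected on its share of stem cell peaks without a partner in the precursor list, which was the largest of 209 autosomal segments of 10 Mb with at least 100 stem cell peaks. That share, and every measure taken from the same pair of lists, is therefore given as a description and was not tested.

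CTCF is a zinc-finger protein that binds a long DNA motif, stops the cohesin complex as it extrudes chromatin loops, and so marks many loop anchors and domain borders. Most of its sites are known to be bound in many cell types, and sites that differ between cell types tend to be weak or sensitive to DNA methylation. This part of chromosome 12 is known for Hif1a, the oxygen-regulated transcription factor, for Esr2, an estrogen receptor, and for Max, the partner of MYC. The RefSeq table of GRCm38.p6 places Hif1a, Esr2 and Max on chromosome 12 in that order. All 34 symbols looked up matched, to 33 genes. No mm9 annotation was used, so no peak below is assigned to a gene.

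The stem cells (ESC) were E14Tg2A cells, called IB10, grown in conditioned medium with serum and leukemia inhibitory factor. The neural precursor cells (NPC) came from the same E14 line and were grown on gelatin in N2 medium with basic FGF and EGF. Whether they were a clone or a mixed culture is not given in the labels, and peak lists hold no expression values against which the cell types could be checked. Both libraries were made with 1 anti-CTCF antibody and sequenced on the SOLiD platform. There was 1 library per cell type, so every difference below lies between 2 libraries and has no replicate check, and depth is unknown because the lists hold no read counts. Intervals on shares are exact Clopper-Pearson 95% intervals over peaks, those on medians come from order statistics, and both cover counting error only.

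ESC peaks of the segment lacked an NPC partner far more often than in the list as a whole. Of the 259 ESC peaks, 120 had no overlapping NPC peak (46.3%, 40.1 to 52.6), against 26.0% of the ESC list and 25.6% (23.4 to 27.9) of chromosome 12 outside 60 to 90 Mb. Among NPC peaks the direction was opposite. Of the 161 NPC peaks, 21 had no overlapping ESC peak (13.0%, 8.26 to 19.2), against 21.4% of the NPC list. The segment thus held 62.2 NPC peaks per 100 ESC peaks, where the whole lists held 94.96. None of the other 208 autosomal segments with at least 100 ESC peaks was below 72.9, while the proximal flank, with fewer peaks, had 64.3.

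The ESC list alone looked ordinary here. The segment had 25.9 ESC peaks per Mb, inside the interquartile range of the other 208 segments (15.7 to 31.0), and neighbouring centres lay a median of 17.6 kb apart, against 17.9 kb over the list. The median ESC score, the value the authors gave each peak without defining it, was 524 (451 to 658) in the segment and 517 in the list. Of its ESC peaks 132 (51.0%) scored above the list median. Widths of ESC peaks were also near the list, 581 bp at the median (quartiles 478.5 and 686.5) against 573 bp.

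The NPC list was thinner and weaker here. Its density was 16.1 peaks per Mb, within the interquartile range of the other segments (14.98 to 28.9), and neighbouring centres lay a median of 32.8 kb apart against 19.6 kb over the list. The median NPC score was 319 (254 to 389), against 385 in the NPC list, and 68 of 161 peaks (42.2%) lay above the list median. NPC peaks were narrow, 393 bp at the median (quartiles 330 and 453) against 433 bp (346 and 527) over the list. Of the other 208 segments 6 had a lower median.

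Strong NPC peaks were missing from the segment. With each list divided into 10 score bins of equal size, 26 of 259 ESC peaks (10.04%, 6.66 to 14.4) fell in the highest ESC bin. None of the 161 NPC peaks fell in the highest NPC bin, where 3 peaks would be a share of 1.86% and the exact upper bound is 2.27%. In the upper 2 bins there were 55 ESC peaks (21.2%) and 3 NPC peaks (1.86%, 0.386 to 5.35). The segment was the only one of the 209 without an NPC peak in the highest bin. Its highest NPC score was 1259, at percentile 87.2 of the NPC list, and the maximum of every other segment was at least 1423. The highest ESC score of the segment was 2458, at percentile 98.8 of the ESC list. NPC scores entered the overlap through which the segment was selected, so the missing strong peaks are part of the same description.

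The unshared ESC peaks were not just the weak ones. ESC-only peaks of the segment had a median score of 222 (interquartile range 160 to 486) and reached 1819, whereas shared ESC peaks there had a median of 976. Over the list the medians were 193 for ESC-only and 743 for shared peaks. Of the 120 ESC-only peaks 25 (20.8%) scored above the list median, against 9.53% of all ESC-only peaks. Put the other way, 25 of the 132 stronger ESC peaks of the segment had no NPC partner (18.9%, 12.6 to 26.7), against 4.96% in the list. The nearest NPC peak lay a median of 13.5 kb away (4.66 to 29.3 kb), against 10481 bp for all ESC-only peaks of the list. Of the 120, 4 had one within 1 kb.

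The share was also set against what the scores of these peaks gave. If each ESC peak had been unshared at the rate of its score bin in the rest of the list, 65.8 of 259 (25.4%) would have lacked a partner, which is 20.9 percentage points below the share observed. For NPC peaks the same calculation gave 41.2 of 161 (25.6%), so the observed share was 12.6 points lower than expected: the NPC-only excess was -12.6 points. With 50% reciprocal overlap required, the NPC-only share was 31.7% and this difference shrank to -1.48 points. The ESC excess over the other 208 segments ran from -18.8 to 11.5 points. For the NPC list, 2 segments had a lower value, with a minimum of -13.4 points.

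The raised ESC-only share was present from weak to strong sites. In all 10 score bins it was above that of the rest of the list, with an interval that excluded the rest in 8 of them. The lowest and the highest bin did not exclude it. They had 19 of 22 peaks unshared (86.4%, 65.1 to 97.1) against 66.8%, and 1 of 26 (3.85%, 0.0973 to 19.6) against 0.52%. The bins divide the share on which the segment was selected, so they describe the excess and do not test it. In bin 2 it was 28 of 33 peaks (84.8%, 68.1 to 94.9) against 58.9%. In bin 4 it was 16 of 21 (76.2%, 52.8 to 91.8) against 36.5%. In bin 7 it was 8 of 27 (29.6%, 13.8 to 50.2) against 6.63%, and in bin 9 it was 3 of 29 (10.3%, 2.19 to 27.4) against 1.11%. NPC-only shares were below those of the rest in all 9 bins that held NPC peaks of the segment, with an interval that excluded the rest in 1 of them. NPC bins 8 and 9 add little to this. They held 18 and 3 peaks of the segment, none unshared, where the rest had 3.38% and 1.36%, so 0 was a likely count.

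**Figure D1:**
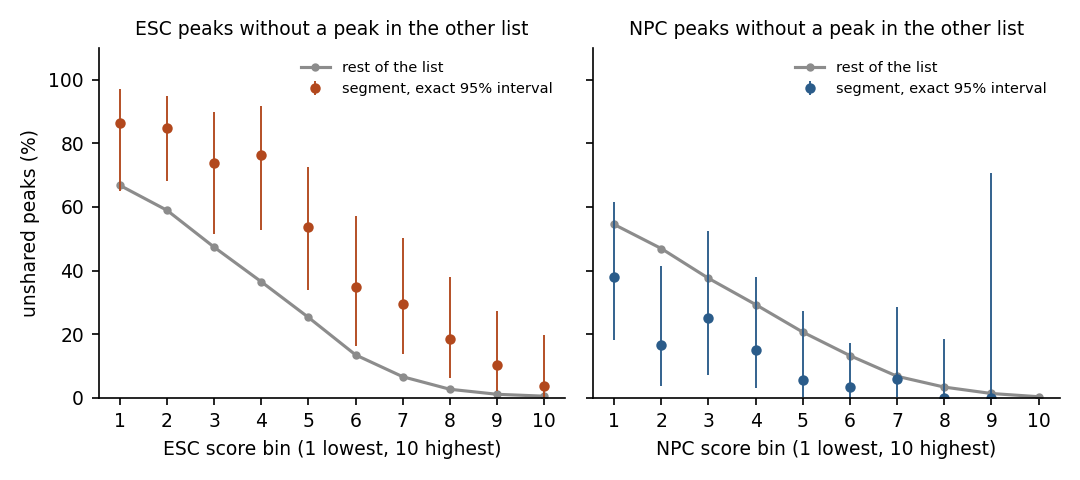
Share of peaks without a partner in the other list (%, vertical axis) by score bin of the own list (horizontal axis), for ESC peaks on the left and NPC peaks on the right, with coloured points for the chromosome 12 segment (exact 95% intervals) and a grey line for the rest of the list. The ESC points lie above the line in all 10 bins and the NPC points below it in all 9 bins that hold peaks. NPC bins 8 and 9 hold 18 and 3 peaks of the segment, none unshared.

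Shared sites also ranked lower in NPC. There were 138 pairs of 1 ESC and 1 NPC peak in the segment. Their median score percentile was 72.5 (63.8 to 77.6) within the ESC list and 48.6 (41.5 to 53.4) within the NPC list. Over all pairs the medians were 61.8 and 59.4. The pairs of the segment thus ranked higher than usual in ESC as well as lower than usual in NPC. The higher ESC rank was that of the paired peaks only. Over all 259 ESC peaks of the segment the median percentile was 50.3, and pairs leave out the unshared peaks, whose median score was lower. The difference, NPC minus ESC, had a median of -24.3 points (-29.4 to -16.3) and an interquartile range of -37.5 to -7.2 points. It was below 0 at 113 of the 138 pairs (81.9%), against 52.9% of all pairs in the lists, whose median was -1.18 points. ESC peaks of these pairs were wide, with a median of 660 bp against 617 bp over all pairs, and their NPC partners narrow, with 408.5 bp against 461 bp.

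The gap in NPC rank between the segment and other pairs was widest at the strongest ESC sites, though not in a steady order. At the 50 pairs in the top 20% of the ESC list by percentile, the median NPC percentile was 58.8 (interquartile range 47.9 to 71.4), against 84.1 (69.8 to 93.4) at other pairs of that ESC rank. At 49 of these 50 pairs it was below the median of the other pairs. Between ESC percentiles 60 and 80 it was 48.2, against 66.3, over 41 pairs. Between 40 and 60 it was 38.3 against 49.1 over 28 pairs, and between 20 and 40 it was 30.8 against 37.2 over 11 pairs. In the lowest range, from 0 to 20, it was 14.5 against 30.03 over 8 pairs, a wider gap than in the 2 ranges above it. Across all ranks 118 of 138 pairs (85.5%) lay below the median of other pairs in the same range of ESC percentile.

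**Figure D2:**
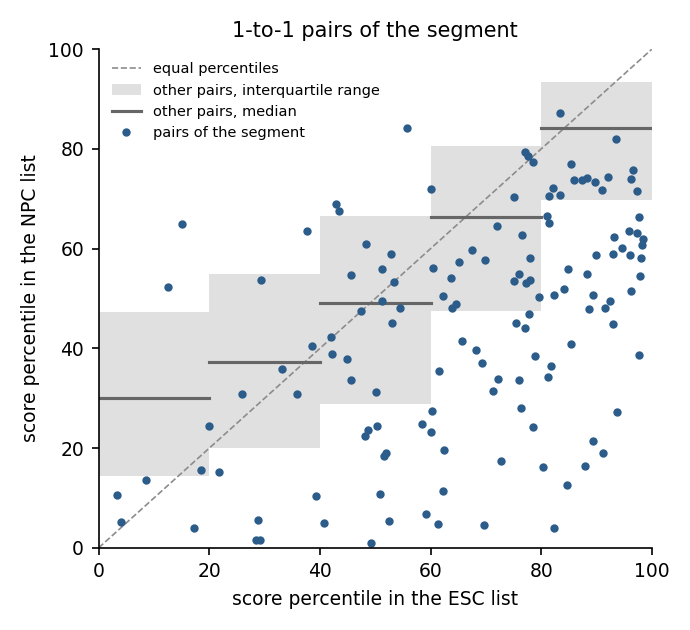
Score percentile of the 138 1-to-1 pairs of the segment in the ESC list (horizontal axis) and the NPC list (vertical axis), with grey bands and dark lines for the interquartile range and median of all other pairs in 5 ranges of ESC percentile. Most points lie below the dark lines, and no point reaches an NPC percentile above 87.2.

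In steps of 500 kb the pattern ran through nearly the whole segment. Of the 20 windows 1 held no ESC peak, and 17 of the other 19 had more ESC-only peaks than expected from scores. This was not particular to the segment. In the flanks it held for 13 of 17 windows with ESC peaks from 60 to 70 Mb and for 14 of 20 from 80 to 90 Mb. Among the 16 windows with at least 8 ESC peaks the share had a median of 44.6% and ran from 0.0% to 77.8%. Its interval lay above the 26.0% of the list in 6 windows, and in 5 of 18 such windows of the distal flank. NPC-only peaks numbered at most 4 in any window, and 6 of the 19 windows with NPC peaks had none. From 60 to 70 Mb they numbered at most 1, and 10 of 16 windows with NPC peaks had none. From 80 to 90 Mb they numbered at most 8, and 3 of 20 had none. The median percentile difference was below 0 in all 18 windows with at least 3 pairs, from -50.8 to -6.04 points. Where an interval could be given, it lay wholly below 0 only from 70 to 70.5, from 73.5 to 74 and from 77 to 77.5 Mb. In the flanks the median was below 0 in all 3 such windows from 60 to 70 Mb and in 9 of 18 from 80 to 90 Mb.

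**Figure D3:**
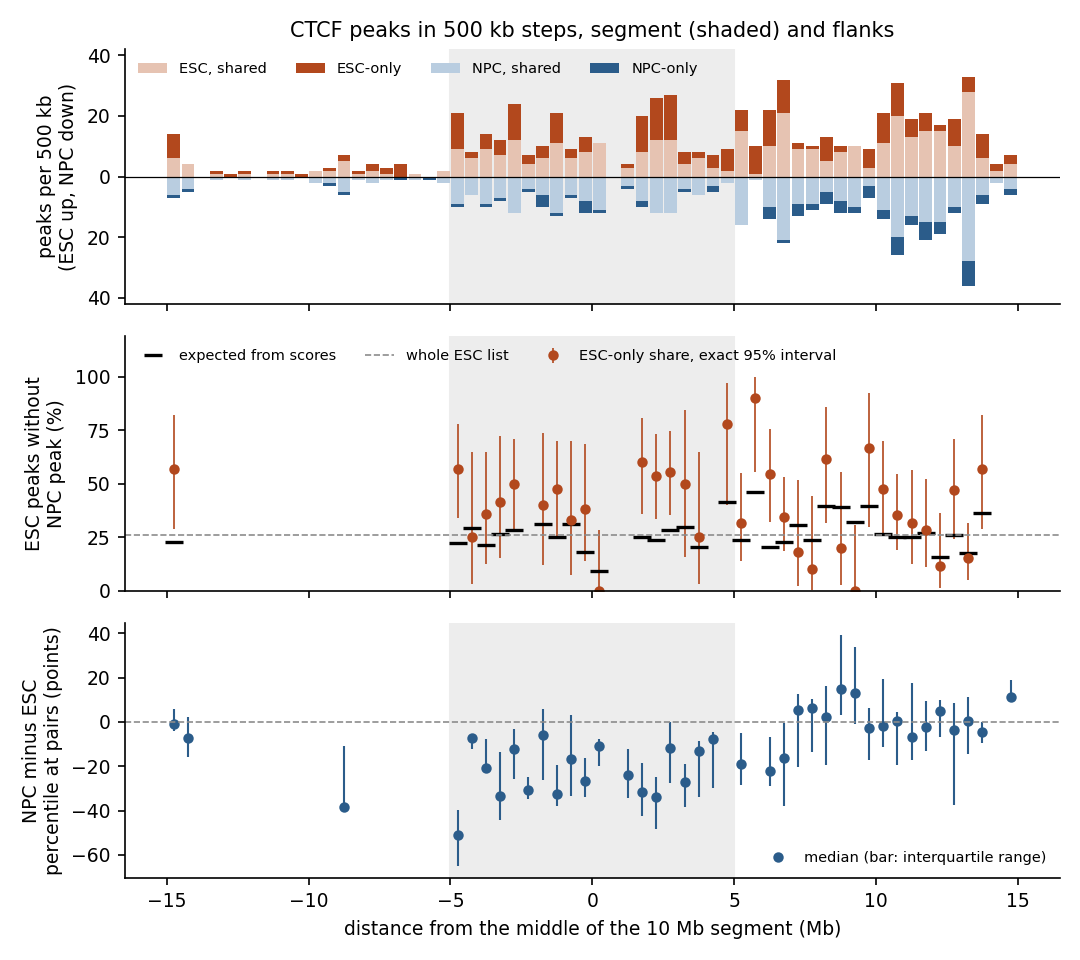
In windows of 500 kb, by distance from the middle of the shaded segment in Mb (horizontal axis), the top panel counts shared and unshared ESC peaks (upward) and NPC peaks (downward), the middle panel gives the ESC-only share (%) with exact 95% intervals and the share expected from scores in windows with at least 8 ESC peaks, and the bottom panel gives the median NPC minus ESC percentile with its interquartile range in windows with at least 3 pairs. In the shaded part all 18 medians of the bottom panel are below 0, and they return to around 0 about 7 Mb beyond the middle.

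The windows with the highest shares lay at both ends and in the middle. From 79.5 to 80 Mb 7 of 9 ESC peaks had no partner (77.8%, 39.99 to 97.2), and the NPC list held 2 peaks there. From 76.5 to 77 Mb it was 12 of 20 (60%, 36.1 to 80.9), with 10 NPC peaks. From 70 to 70.5 Mb it was 12 of 21 (57.1%, 34.0 to 78.2), and all 9 pairs of that window ranked lower in NPC, by a median of -50.8 points. The densest part was 77 to 78 Mb, where 29 of 53 ESC peaks (54.7%) were unshared and none of 24 NPC peaks was.

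A short stretch near the middle did not share the excess. From 75 to 75.5 Mb 0 of 11 ESC peaks were unshared, which has an upper limit of 28.5%, and from their scores 1.04 would have been. These 11 peaks formed the longest run of shared ESC peaks in the segment, from 75032234 to 75434479, with scores from 411 to 1983. Their partners still ranked lower in NPC at 9 of 11 pairs, by a median of -10.8 points. Next to this run lay the widest gap of the NPC list in the segment, 585 kb from 75434425 to 76019542, in which the ESC list held 1 peak with a score of 105.07. The windows from 70.5 to 71 Mb and from 78.5 to 79 Mb had 2 unshared peaks of 8 each (25%), near the 26.0% of the list.

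The strongest ESC-only peaks were spread over the segment. The 10 highest that lay over 1 kb from any NPC peak scored between 859 and 1819. The first, at 77477414 to 77478195, was 782 bp wide, scored 1819 (percentile 95.1 of the ESC list) and lay 3191 bp from the nearest NPC peak. In the rest of the list 0.52% of ESC peaks in its score bin were unshared. It opened 1 of the 2 longest runs of ESC-only peaks, 6 in a row over 49.1 kb from 77477414 to 77526526, with a median score of 446 and no NPC peak between them. The other run of 6 spread over 434 kb, from 79524211 to 79957741, had a median score of 149.9 and likewise held no NPC peak. The peak at 77502566 to 77503182, the tenth of the 10 with a score of 859, belonged to the shorter run and lay 28343 bp from an NPC peak.

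The second of the 10, at 73368477 to 73369135, scored 1474 and lay 23174 bp from the nearest NPC peak. A neighbour at 73345844 to 73346508 scored 1000.4 and lay 1622 bp from an NPC-only peak at 73343860 to 73344221, which scored 294. The third and the fourth were at 78140191 to 78140774 (score 1253, 12986 bp from an NPC peak) and at 76730572 to 76731180 (score 1171, 15619 bp). Scores between 960 and 1063 belonged to the remaining 4, at 74665554 to 74666342, 70309346 to 70309927, 73943933 to 73944679 and 72240084 to 72240872.

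NPC-only peaks of the segment were few, and mostly weak as they were over the list. Their median score was 133, against 168 for all NPC-only peaks. Of the 21, 2 (9.52%) were above the NPC list median, close to the 11.7% of all NPC-only peaks. The strongest, at 78121058 to 78121551, scored 676 (percentile 67.4 of the NPC list) and lay 8380 bp from the nearest ESC peak. The next, at 74809795 to 74810203, scored 401, and the next ones of the 5 strongest scored 294, 258 and 229.6.

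Single pairs showed how far a site could move. At 74063679 to 74064364 the ESC peak scored 1230 (percentile 82.31) and its NPC partner 110 (percentile 4.02), a difference of -78.3 points and the largest fall. The next 4 falls were between -72.2 and -67.8 points, and 2 of these 4 pairs were close neighbours, at 70227912 to 70228634 (ESC percentile 89.3, NPC 21.5) and 70232772 to 70233522 (91.2 and 18.9). Rises were smaller. The largest, at 76757673 to 76757966, went from ESC percentile 15.1 to NPC percentile 65.03, and the other 4 of the 5 largest were between 25.8 and 39.8 points.

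Of the 5 sites that ranked best in both lists 4 lay between 77 and 78 Mb. The pair with the best lower rank was at 77697199 to 77697970, with a score of 1266 in ESC (percentile 83.4) and 1259 in NPC (percentile 87.2). Its proximal neighbour among them, at 77693053 to 77693706, had percentiles of 78.6 and 77.4. The others were at 77297376 to 77298093 (93.6 and 81.9), 77904786 to 77905430 (77.03 and 79.4) and 71336152 to 71336766 (77.6 and 78.5). At these 5 sites the difference ran from -11.6 to 3.71 points, a range that the choice of sites with a high rank in both lists limits.

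The round limits of the segment were not its edges. At 70 Mb the last ESC peak before the limit (69963551 to 69964220) and the first after it (70189134 to 70189762) were both shared, with ESC percentiles of 72.2 and 96.1 and NPC percentiles of 47.3 and 58.7. At 80 Mb the last peak before the limit (79975557 to 79976078, score 210) and the first after it (80017162 to 80017911, score 794) were both ESC-only. In the first window of 500 kb beyond it 7 of 22 ESC peaks were unshared (31.8%, 13.9 to 54.9), where 23.99% was expected from scores. In the next it was 9 of 10 (90%, 55.5 to 99.7), where 46.3% was expected. The proximal flank from 60 to 70 Mb had nearly the same ESC-only share as the segment, 26 of 56 peaks (46.4%, 33.0 to 60.3), where 26.8% was expected from scores. Its 30 pairs had a median difference of -19.1 points (-30.3 to -11.05). This flank was poor in peaks, with 5.6 ESC peaks per Mb. The distal flank from 80 to 90 Mb had 120 of 335 ESC peaks unshared (35.8%, 30.7 to 41.2), where 26.8% was expected, and 62 of 278 NPC peaks (22.3%, 17.5 to 27.7). Its 214 pairs had a median difference of -3.13 points (-6.96 to 0.424).

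The distal edge was sought in the ranks of shared sites. The run of pairs with the greatest summed fall in percentile, counting each pair's fall beyond 12.2 points, ended at 82.26 Mb. The split of the pairs between 70 and 90 Mb that left the least squared deviation fell at the same place, between neighbouring pairs at 82261717 to 82262282 and at 82269399 to 82269975. Both rules used the same values. Such a split always falls between neighbouring pairs and picks a strong contrast. Its place and the medians on either side therefore do not show how sharp the edge was. The median difference was -22.4 points over the 189 pairs before the split and 0.48 points over the 163 pairs after it. From 80 to 82 Mb 38 of 46 pairs ranked lower in NPC, and from 82 to 84 Mb 12 of 31 did.

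Strong NPC peaks were more frequent beyond this distal edge. The edge was placed by NPC minus ESC percentiles at pairs, so this difference is in part built in. From 80 Mb to the edge 1 of 61 NPC peaks was in the highest score bin, and from the edge to 90 Mb 32 of 217 were (14.7%). The ESC list held 14 of 92 (15.2%) and 24 of 243 (9.88%) in its own highest bin in these stretches. The ESC-only share was lower beyond the edge as well, with overlapping intervals. It was 43.5% (33.2 to 54.2) from 80 Mb to the edge, where 25.2% was expected from scores, and 32.9% (27.0 to 39.2) from there to 90 Mb, where 27.4% was expected. NPC-only shares were 14.8% (6.98 to 26.2) and 24.4% (18.9 to 30.7).

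The proximal edge was less certain. Its place ranged more widely between the rules tried than that of the distal edge, and few peaks lie there. Whether the low number of peaks was the cause was not tested. By both rules on the pairs the proximal edge fell at 62.93 Mb, after a stretch of over 1 Mb without a pair. The last pair before it, at 61685762 to 61686367, went up by 24.8 points, and the first after it, at 62927091 to 62927758, had a difference of -45.9 points. The next 2 pairs had differences of -74.3 and -55.1 points. Between this edge and 70 Mb 18 of 19 pairs ranked lower in NPC, by a median of -30.3 points (-45.9 to -13.7), and none of the 23 NPC peaks reached the upper 2 score bins. None of the 34 ESC peaks there was in the highest ESC bin either. From 60 Mb to the edge the 11 pairs had a median difference of 0.149 points (-18.4 to 24.8). The ESC-only share was not lower outside this edge. It was 11 of 22 peaks (50%, 28.2 to 71.8) from 60 Mb to the edge, where 23.1% was expected from scores, and 15 of 34 (44.1%, 27.2 to 62.1) from there to 70 Mb, where 29.2% was expected.

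**Figure D4:**
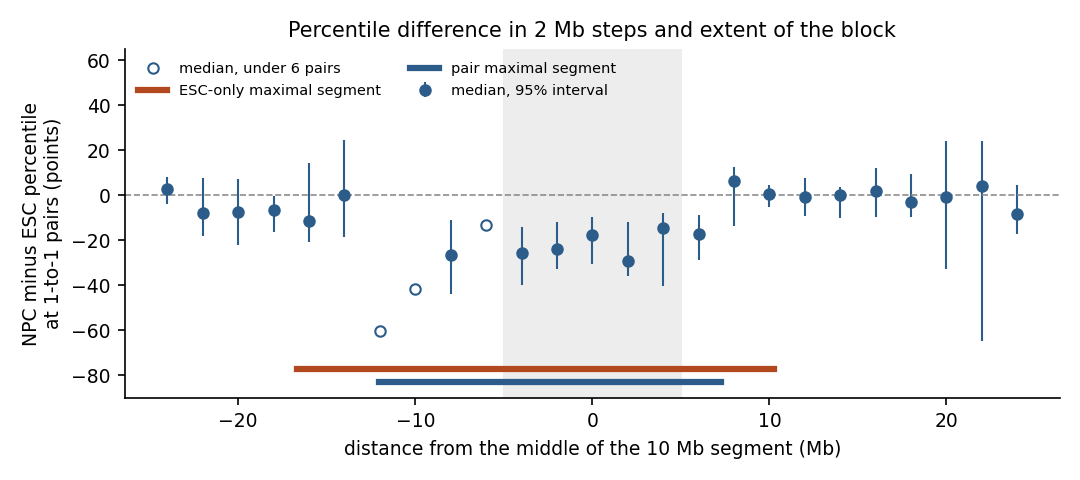
Median NPC minus ESC percentile at 1-to-1 pairs (points, vertical axis) in windows of 2 Mb by distance from the middle of the segment (Mb, horizontal axis), with 95% intervals where at least 6 pairs were present and open circles elsewhere; bars at the bottom give the extent of the block from the ESC-only share and from the pairs. The 5 medians in the shaded segment lie between -29.1 and -14.4 points, and from 82 Mb on they lie around 0.

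Between 62.93 and 82.26 Mb, a stretch of 19.3 Mb, 175 of 385 ESC peaks were unshared (45.5%, 40.4 to 50.6), where 25.7% was expected from scores. The NPC list had 34 of 245 peaks unshared (13.9%, 9.81 to 18.8). Of the 208 pairs 173 (83.2%) ranked lower in NPC, by a median of -24.1 points (-27.5 to -18.2). In the highest score bin were 40 ESC peaks (10.4%) and 1 NPC peak (0.408%, 0.0103 to 2.25). These limits were found from the values they bound, so the values describe the stretch and do not test it.

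The ESC-only share by itself gave wider limits. With each ESC peak counted as unshared or not against 36.2%, the midpoint between the list and the segment, the run with the largest excess went from 58.33 to 85.29 Mb and held 222 unshared peaks of 495 (44.8%, 40.4 to 49.4). It began with an ESC-only peak at 58334309 to 58334891 (score 323) after a shared one at 58331996 to 58332419 (score 198). It ended with an ESC-only peak at 85287337 to 85287718 (score 155) before a shared one at 85312723 to 85313439 (score 865). The part between the pair edge and this end had an ESC-only share of 39.7% (28.0 to 52.3), with 35.5% expected from scores and a median pair difference of 6.34 points (-1.7 to 16.1). Over all rules tried the proximal limit ran from 17.37 to 62.93 Mb and the distal one from 81.5 to 90.2 Mb.

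Against the other autosomal segments the chromosome 12 segment stood at an extreme in several of these measures. Its ESC-only share of 46.3% compares with 10.8% to 38.9% in the other 208, and its median pair difference of -24.3 points with -20.2 to 19.8 points. The share of pairs ranking lower in NPC, 81.9%, compares with 14.4% to 76.1%. With each pair set against the median of pairs in the same ESC percentile bin, a calculation added after seeing the data, the median was -20.5 points, which was also the lowest of the 209 but by less than 1 point. Since the segment was selected as the extreme of 1 of these measures, and the measures share their peaks, its place in the others is not separate evidence.

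**Figure D5:**
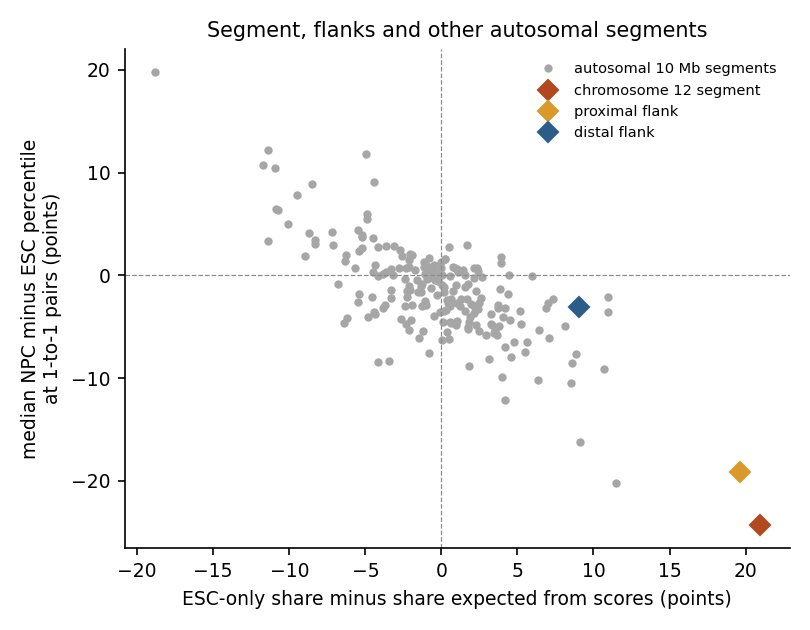
Each point is an autosomal segment of 10 Mb with at least 100 ESC peaks, placed by its ESC-only share minus the share expected from scores (percentage points, horizontal axis) and by its median NPC minus ESC percentile at 1-to-1 pairs (points, vertical axis), and diamonds mark the chromosome 12 segment, at 20.9 and -24.3 points, and its flanks. The segment lies lowest and farthest to the right, with the proximal flank, which has only 56 ESC peaks, next to it.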

How the data were processed

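CTCF chromatin immunoprecipitation was sequenced in 1 ESC and 1 NPC library. Each library has its own list of MACS peaks, per the file headers. Positions are those of mm9, per the submitters' processing notes. For the MACS version, its threshold, the aligner and the control, the record used here gives nothing. The score of each peak is the value the authors deposited. The files do not define it and its lowest value is 100.01, so lists were compared only through percentiles within each list. Coordinates are printed 1-based.

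Peaks of the ESC and NPC lists with 1 bp or more in common were counted as shared, and pairs are peaks that overlap 1-to-1. Expected shares apply the unshared rate of 10 score bins, taken over the list without the segment, to the segment's own peaks, with no resampling. Edges are the ends of the contiguous run with the largest summed excess. Peaks named are the 10 strongest ESC-only and 5 strongest NPC-only peaks over 1 kb from the other list, the 5 best, most lowered and most raised pairs, the longest runs, the widest gap, the edge peaks and the 3 highest and 3 lowest windows of 500 kb with at least 8 ESC peaks. The window from 77 to 78 Mb, the peaks at 70 and 80 Mb and the segments of other chromosomes were named after their values were seen.

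The segment, the rules and the gene names were chosen with earlier results of these data known. Alternatives changed the overlap rule, the part of the lists used, the score bins, the window size, the edge rule and the limits, and left out each window of 1 Mb. The steps were tested on simulated data. Python 3.11.15, numpy 2.4.6, pandas 2.3.3, scipy 1.17.1 and matplotlib 3.10.9 were used. No mm9 genome was used, so the planned search for the CTCF motif, and the sequences of the peaks, are not given.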

Additional observations from a re-analysis of the deposited data

How the results depend on the processing

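The excess of ESC-only peaks over the share expected from scores stayed between 18.5 and 26.4 points under 8 alternatives, and the median pair difference kept its sign under 7, from -25.7 to -16.3 points. With 50% reciprocal overlap the unshared shares were 57.5% of ESC and 31.7% of NPC peaks in the segment and 42.1% of ESC peaks in the distal flank, and the NPC-only difference from expectation shrank to -1.48 points. NPC peaks at pairs of the segment had a median width of 408.5 bp against 660 bp for their ESC partners. With the upper 50% of each list set against the whole other list, the shares were 18.9% of ESC and 2.94% of NPC peaks in the segment. In the proximal and distal flanks they were 23.1% and 9.76% of ESC peaks, and in the whole ESC list 4.96%. Fewer weak peaks enter at this setting. Within the limits set by the ESC-only share the median pair difference was -16.3 points. The proximal edge moved from 58.33 Mb to 52.31 Mb with centres within 100 bp, 52.0 Mb and 52.25 Mb in windows of 500 and 250 kb, 17.37 Mb against expected shares, and 62.93 Mb by either rule on pairs. The distal edge moved from 85.29 Mb to 82.04 Mb with 50% reciprocal overlap, 85.94 Mb with centres within 100 bp, 81.5 Mb in windows of 500 kb and of 250 kb, 90.21 Mb against expected shares, and 82.26 Mb by either rule on pairs. The cause of these moves was not tested. The split of the pairs, the comparison within ESC percentile bins and the use of the edges as limits were added after seeing the data. With 1 library per cell type none could be left out, and a site counted as unshared can be bound too weakly to be called.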

Other observations

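Among autosomal segments with at least 100 ESC peaks, those on chromosomes 5 and 6 below came nearest to the chromosome 12 segment in the ranks of their shared sites. On chromosome 5 from 150 to 160 Mb 35.1% (27.6 to 43.2) of 154 ESC peaks were unshared, 11.5 points above the share expected from scores, and the median pair difference was -20.2 points (-28.6 to -8.76) over 98 pairs. On chromosome 6 from 60 to 70 Mb the share was 38.9% (30.9 to 47.4) of 144 ESC peaks, 9.08 points above expectation, with a median pair difference of -16.2 points (-21.2 to -12.1) over 88 pairs. Both also had few NPC-only peaks, 14.3% and 16.2%. The mirror image was chromosome 15 from 60 to 70 Mb, where 10.8% (5.51 to 18.5) of the 102 sites in the ESC list were unshared, against 42.5% of the 160 in the NPC list, and the median pair difference was 19.8 points (14.1 to 23.2). These segments were picked for their values, and the differences between them and the chromosome 12 segment were not tested.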
